A study of Mus musculus with 9 samples.

Results

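The glucocorticoid response genes are 8 genes that either receive or carry the glucocorticoid signal in leukocytes: Nr3c1, Fkbp5, Tsc22d3, Klf9, Zbtb16, Sgk1, Ddit4 and Anxa1. They were chosen by name, as a short textbook list, with earlier results of these data known. All 8 had a row among the 20926 genes of the deposited table. Their levels were followed in the blood of 9 mice, with 3 libraries per group (Ctrl, CIA and CIA+THz). All mice were male DBA/1 mice, a strain prone to autoimmune arthritis, labelled as 7-week-old, which by the methods is the age at which groups were formed, before immunisation, so that blood was taken from older mice. Ctrl mice had no arthritis and no irradiation. CIA mice had collagen-induced arthritis, a model of rheumatoid arthritis raised by injecting chick type II collagen in adjuvant at the tail root and boosting it later. The methods state no such injections for Ctrl mice, so that arthritis and the injections cannot be told apart in comparisons with Ctrl. CIA+THz mice were given arthritis in the same way, and their swollen ankle joints were exposed to 0.1 THz radiation for 30 min per day over 14 days. They were kept under isoflurane anaesthesia during each exposure, and the methods state no anaesthesia for the other groups, so that irradiation and anaesthesia cannot be told apart in comparisons with CIA+THz. The time of day at which blood was taken is not given in the sources used here, and glucocorticoid levels follow a daily rhythm.

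Glucocorticoids, corticosterone in the mouse, are adrenal steroids released under stress and inflammation. They bind the glucocorticoid receptor, the product of Nr3c1, which waits in the cytoplasm in a complex with the Hsp90 chaperone machinery, moves to the nucleus and binds DNA at paired half-sites. In leukocytes the receptor raises genes that restrain inflammation and lowers many cytokine genes. Glucocorticoids also shift which leukocytes circulate, since they hold neutrophils in the blood and move lymphocytes out of it. Fkbp5 is among the most strongly induced targets in many tissues, and its protein, a co-chaperone of Hsp90, lowers the affinity of the receptor for hormone and so closes a feedback loop.

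Fkbp5 was the member that differed most between the groups. It fell in CIA and in CIA+THz relative to Ctrl, to group means 3.00-fold and 4.27-fold below that of Ctrl. Nr3c1 was lower by less in both arthritic groups, although for CIA+THz the difference was near 0 without rescaling of the libraries. No member other than Fkbp5 passed the criterion used here between any pair of groups, and in CIA+THz against CIA none did. The libraries are bulk RNA, in which fewer cells of a type and less RNA per cell cannot be told apart.

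The proximal promoters of the members were searched for the half-site of the glucocorticoid response element, AGAACA on one strand or TGTTCT on the other, to show where the best known receptor motif stands next to these genes. The set of RefSeq promoters used here (GRCm38.p6, from 250 bases before to 50 bases after a start) covers 6 of the 8 members, in 13 windows. Nr3c1 and Zbtb16 had no window in this set, which does not mean that RefSeq lacks them. A half-site was found in 4 of the 13 windows (30.8%), against 19% of the 32851 windows of all genes. Of these 4 windows, 3 belong to Sgk1, which supplies 6 of the 13, and 1 belongs to Tsc22d3, while the windows of the other 4 genes held none. The palindrome of AGAACA, 3 bases and TGTTCT was found in 1 window of Sgk1, and in 3 windows (0.00913%) of all genes. The 250 bases before the start are printed for that window of Sgk1, for the 1 window of Tsc22d3 with a half-site, and for Fkbp5, the member with the largest change. They run 5′ to 3′ along the strand of the gene, with half-sites in capitals.
Sgk1, chr10:21993640-21993889, plus strand: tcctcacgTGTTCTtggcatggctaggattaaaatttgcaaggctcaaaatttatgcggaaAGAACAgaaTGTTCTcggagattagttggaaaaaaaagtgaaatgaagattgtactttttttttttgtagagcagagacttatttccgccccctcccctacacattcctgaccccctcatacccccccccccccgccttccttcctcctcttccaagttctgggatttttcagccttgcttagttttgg
Tsc22d3, chrX:140600523-140600772, minus strand: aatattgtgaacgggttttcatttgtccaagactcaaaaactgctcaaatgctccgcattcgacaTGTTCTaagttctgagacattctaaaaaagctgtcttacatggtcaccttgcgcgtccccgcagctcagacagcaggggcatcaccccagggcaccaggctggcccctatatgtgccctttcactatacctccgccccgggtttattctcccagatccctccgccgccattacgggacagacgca
Fkbp5, chr17:28486150-28486399, minus strand: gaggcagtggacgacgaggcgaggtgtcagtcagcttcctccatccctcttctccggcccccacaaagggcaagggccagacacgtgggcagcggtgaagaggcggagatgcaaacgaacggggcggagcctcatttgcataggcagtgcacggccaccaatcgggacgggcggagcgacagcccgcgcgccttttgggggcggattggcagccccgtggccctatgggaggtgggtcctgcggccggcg
The palindrome of Sgk1 began 189 bases before the start, a further half-site of that window began 242 bases before it, and the half-site of Tsc22d3 began 185 bases before it. The single window of Fkbp5 held none of these letters, and such a search says nothing about elements that lie elsewhere in or around the gene.

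The values are FPKM, fragment numbers normalised to transcript length and to library size, so that levels may be compared between genes. Each library was further divided by 1 factor (from 0.847 to 1.24) set by the genes above 0 in all 9 libraries. Read counts cannot be had from these values, but the steps between the lowest values gave the depth relative to Ctrl replicate 1. It lay between 1 and 1.10 in Ctrl, between 1.01 and 1.27 in CIA, and between 1.35 and 1.87 in CIA+THz, and between 11801 and 12807 genes were above 0 in a library. The part of depth in the results was not tested. The label blood leukocyte was met by the pan-leukocyte genes such as Ptprc and Coro1a, whose summed level was between 4858 and 5926 rescaled FPKM in every library. The RNA was not from leukocytes alone, since Alas2, a gene of red cell precursors, accounted for 14.4% to 16.6% of the FPKM total in the Ctrl libraries, for 16.3% to 16.7% in CIA and for 11.4% to 14.0% in CIA+THz. Its part in the results was not tested.

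Comparisons between pairs of groups were made with limma on log2(rescaled FPKM + 0.1), a scale that understates the change of low genes. A gene passed the criterion at an unadjusted p under 0.05 with a log2 fold change beyond 0.67 in either direction, the thresholds of the study, and p-values adjusted by Benjamini-Hochberg over the 12366 genes tested stand beside them. A gene is said to have risen or fallen only where it passed this criterion. All 8 members were tested.

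By mean level over the 9 libraries, Tsc22d3 was the most abundant member (403 rescaled FPKM), followed by Anxa1 (143), Fkbp5 (52.4), Nr3c1 (40.9), Sgk1 (14.7), Ddit4 (14.6), Zbtb16 (2.25) and Klf9 (0.512). Among neighbours in this order, the ranges over the libraries overlapped for Anxa1 and Fkbp5, for Fkbp5 and Nr3c1, and for Sgk1 and Ddit4, and they were apart for the other pairs. The highest library exceeded the lowest 7.67-fold for Fkbp5, 3.25-fold for Klf9 and 2.65-fold for Zbtb16. For the other 5 members this range was between 1.48-fold and 1.74-fold.

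**Figure D1:**
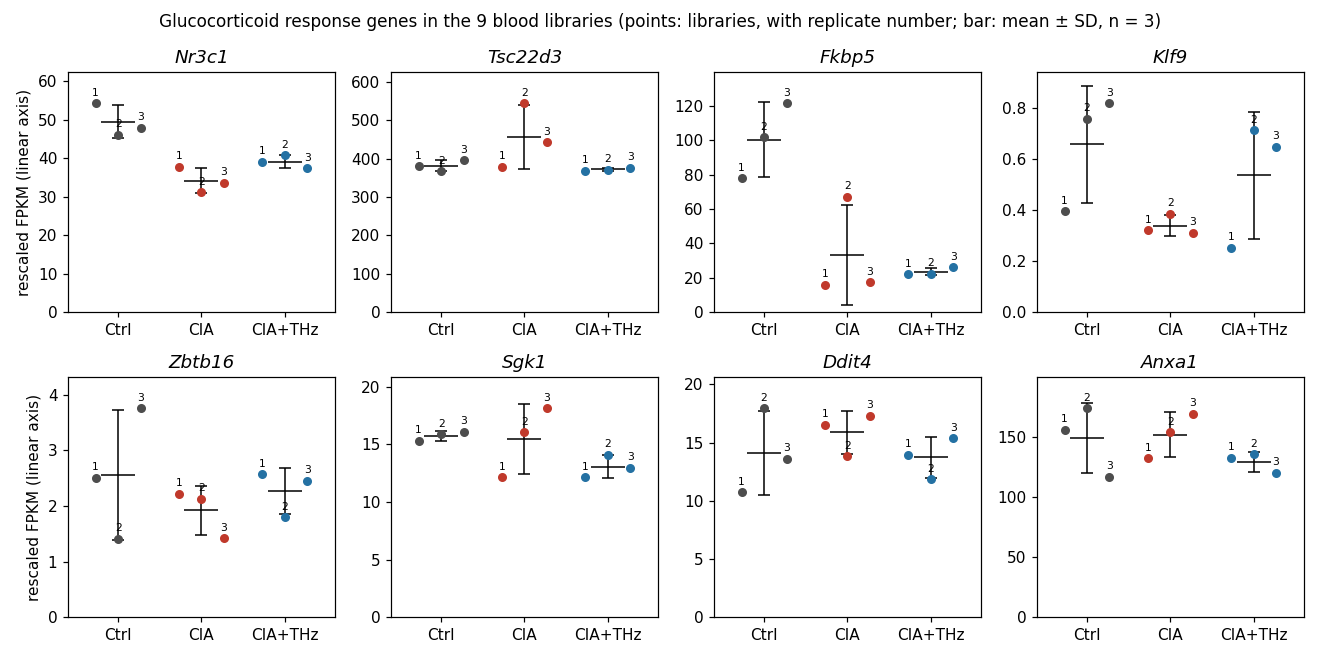
Rescaled FPKM (linear vertical axes that start at 0) of the 8 genes in the Ctrl, CIA and CIA+THz groups. Points are libraries with their replicate number, and bars are the mean ± SD of 3 libraries. The Fkbp5 panel shows the 3 Ctrl libraries above all others, with CIA replicate 2 at 67 between them and the remaining 5 libraries, which lie between 15.8 and 26.0.

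In CIA against Ctrl, which compares injected arthritic mice with mice without arthritis, 1 of the 8 members passed the criterion, Fkbp5, which was lower. Of all genes tested, 9.04% passed it, 4.79% as higher and 4.25% as lower. The median log2 fold change of the 8 members was -0.18, beside -0.01 over all genes tested, with 5 members lower and 3 higher. In CIA+THz against CIA, which compares arthritic mice irradiated under anaesthesia with other arthritic mice, 0 of the 8 members passed the criterion. Of all genes 4.54% passed it (2.94% as higher and 1.6% as lower), and limma gave 0 members an unadjusted p under 0.05. The medians were -0.19 for the members and 0.03 for all genes. In CIA+THz against Ctrl, 1 of the 8 members passed, again Fkbp5 and again lower, against 7.88% of all genes, 4.64% as higher and 3.24% as lower. All 8 members had a negative log2 fold change there, with a median of -0.23 beside 0.04 for all genes, but 6 of the 8 had an unadjusted p over 0.05, and the common direction depended on the scale, with 3 of 8 negative for FPKM as deposited and 6 of 8 with libraries scaled on pan-leukocyte genes. The 3 comparisons share libraries and are not independent of each other.

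Counts of this kind rest on the scale of the libraries. With FPKM as deposited, all CIA+THz values lay higher by 0.28 against CIA and by 0.31 against Ctrl on the log2 scale. The split of all genes past the criterion then moved from 363 higher and 198 lower to 1133 and 66 in CIA+THz against CIA, and from 574 and 401 to 1600 and 120 in CIA+THz against Ctrl. With libraries scaled on the pan-leukocyte genes the splits were 544 and 127, and 665 and 334, while CIA against Ctrl went from 592 higher and 526 lower to 482 and 644. For FPKM as deposited the median of the 8 members was 0.08 in both CIA+THz comparisons. Directions of CIA+THz in the members and in the lists are thus relative to the scale chosen. Fkbp5 was past the criterion in both comparisons with Ctrl under each of these scalings.

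**Figure D2:**
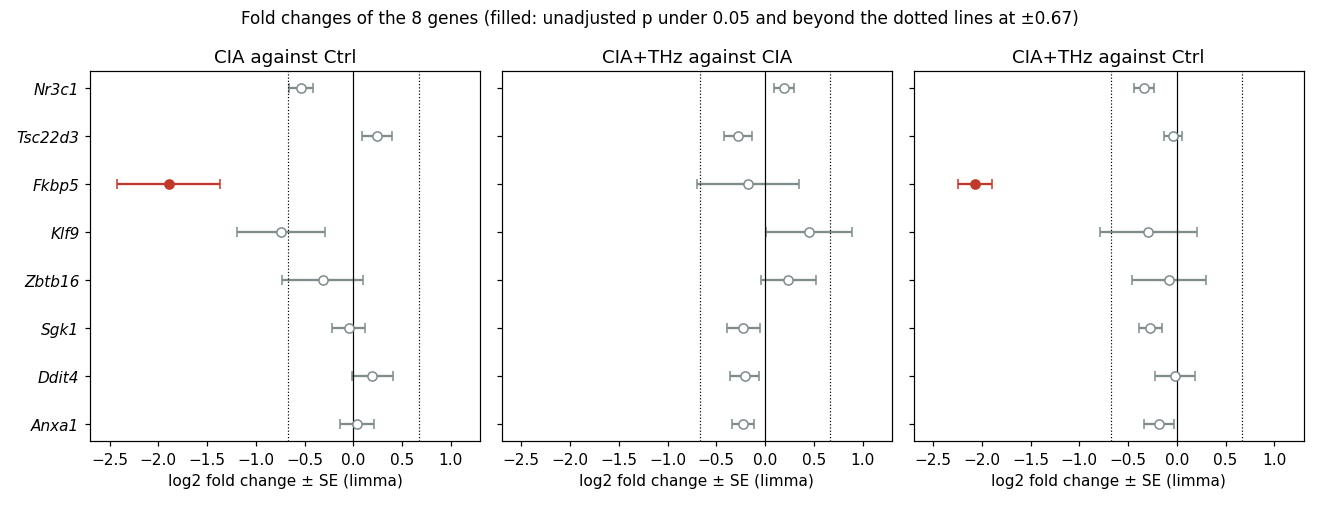
Log2 fold changes (horizontal axes) of the 8 genes in the 3 comparisons, from limma, with bars of 1 SE. Filled points passed the criterion, and dotted lines stand at 0.67 in either direction. Fkbp5 is filled in CIA against Ctrl (-1.89) and in CIA+THz against Ctrl (-2.07), and no point is filled in CIA+THz against CIA.

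Fkbp5 (chromosome 17, 28399094 to 28517527 of GRCm38, minus strand, GENCODE) encodes the co-chaperone of the feedback loop. Its rescaled FPKM was 77.9, 102 and 121 in Ctrl replicates 1, 2 and 3, it was 15.8, 67 and 17.4 in the CIA replicates, and it was 22.1, 22.4 and 26.0 in the CIA+THz replicates. Every Ctrl library was above every other library, and CIA replicate 2 stood apart from its group, at a level 3.84-fold that of the next CIA library. The group means (± SD, n = 3) of Ctrl, CIA and CIA+THz were 100.3 ± 21.8, 33.4 ± 29.1 and 23.5 ± 2.17. In CIA against Ctrl the log2 fold change was -1.89 (SE 0.53), with an unadjusted p of 0.00835 and an adjusted p of 0.156 by limma. In CIA+THz against Ctrl it was -2.07 (SE 0.17), with an unadjusted p of 3.84e-06 and an adjusted p of 0.0158 by limma. The latter was among the 13 genes (0.105% of those tested) with an adjusted p under 0.05 in that comparison. This depended on the fit. With all 3 groups in 1 limma fit the SE was 0.43 and the adjusted p 0.0591. Without a filter on low values the adjusted p was 0.0539 by limma. CIA+THz and CIA overlapped, and their difference was -0.18 (SE 0.52, adjusted p = 0.917 by limma).

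Because of CIA replicate 2, the spread of Fkbp5 in CIA was larger than its distance from CIA+THz. Without that library the difference of CIA+THz from CIA turned to 0.49 (SE 0.12), with an unadjusted p of 0.00802 and an adjusted p of 0.304 by limma, which does not reach the fold threshold. The difference of CIA from Ctrl was then -2.56, with an unadjusted p of 3.33e-05 by limma. Leaving out each of the other libraries of these comparisons in turn gave log2 fold changes as small as -1.53 in CIA against Ctrl, and between -2.24 and -1.92 in CIA+THz against Ctrl. Fkbp5 passed the criterion in both comparisons with Ctrl each time, with adjusted p-values between 0.0822 and 0.326 in CIA against Ctrl and between 0.0363 and 0.165 in CIA+THz against Ctrl by limma. Across the 3 groups, the moderated F-test of limma gave Fkbp5 an unadjusted p of 0.000982 and an adjusted p of 0.0452. Without CIA replicate 2 the adjusted p of this F-test was 0.00128. Leaving out any other library gave an adjusted p between 0.0676 and 0.133, above 0.05 each time.

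By the number of genes that were higher in it, CIA replicate 2 was not unusual in its group. Genes that were lower in it were not counted. Of 9748 genes whose mean was at least 1 rescaled FPKM, 102 (1.05%) were higher in it than in either other CIA library by 1 or more on the log2 scale, and this number was 124 for CIA replicate 1 and 95 for CIA replicate 3. Its excess of Fkbp5 (1.94 on the log2 scale) was equalled or exceeded by 16 other genes. It was the highest CIA library for 4169 of the 12366 genes tested (33.7%), for 3 of the 8 members, and for 13 of the 26 tested genes of a longer list of induced genes that is described after the members. Those of the 13 named here were chosen after their values were seen. Per1, a clock gene with a direct receptor response, was 2.93, 6.25 and 3.51 in CIA replicates 1, 2 and 3. Dusp1, a phosphatase that damps MAP kinase signalling, was 115, 180 and 141, and Cxcr4, a homing receptor, was 90.6, 125 and 118. Of the 26 genes, 7 were highest in CIA replicate 1 and 6 in CIA replicate 3. CIA replicate 2 was also the highest CIA library for 6 of the 8 neutrophil markers. In other lists described later, this held for 6 of 10 clock output genes and 3 of 11 inflammatory genes repressed by glucocorticoids. It held for 4 of 13 receptor chaperones and 2 of 12 coregulators. The cause of these values was not tested.

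The 3 genes whose pattern over the 9 libraries came closest to that of Fkbp5 were Crispld2, Rdh12 and Il1r2. Closeness was measured as the root mean square difference between log2 values, each gene centred on its own mean, among the 9748 genes. It was 0.38 for Crispld2, 0.48 for Rdh12 and 0.57 for Il1r2, where Fkbp5 varied around its own mean by 1.10 in the same measure. Rescaled FPKM of Crispld2, a secreted protein, was 34.8, 34.8 and 30.4 in Ctrl, 6.08, 11.5 and 5.47 in CIA, and 6.26, 7.35 and 6.62 in CIA+THz. Rdh12, a retinol dehydrogenase, was 88.0, 85.5 and 72.6 in Ctrl, 24.1, 62.5 and 33.5 in CIA, and 30.3, 31.8 and 30.7 in CIA+THz. As with Fkbp5, the Ctrl libraries of both genes lay above all others and CIA replicate 2 was the highest of its group. This likeness follows from how the genes were chosen.

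**Figure D3:**
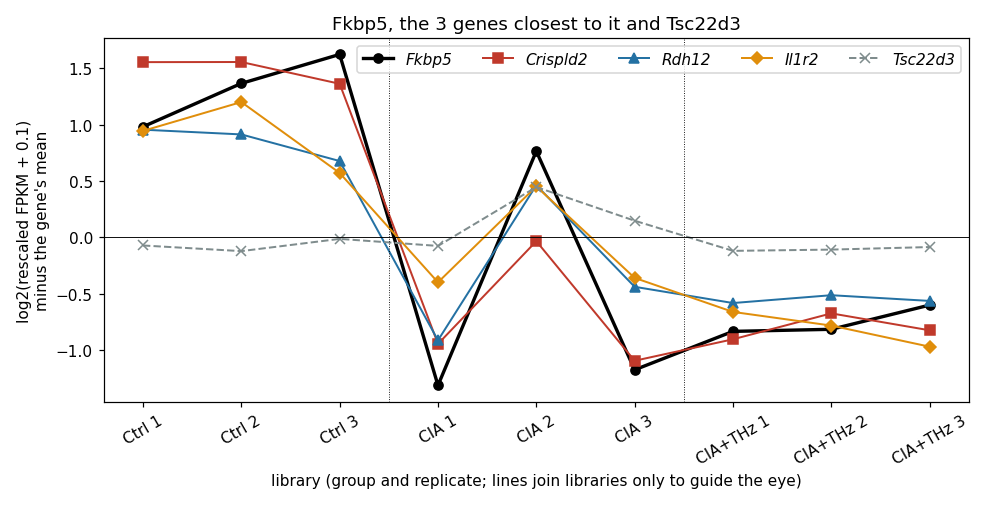
Log2(rescaled FPKM + 0.1) minus the mean of the gene over the 9 libraries (vertical axis) for Fkbp5, Crispld2, Rdh12, Il1r2 and Tsc22d3 in each library (horizontal axis). Lines join libraries only to guide the eye. Fkbp5 and its 3 closest genes are high in the 3 Ctrl libraries and rise again in CIA replicate 2, while Tsc22d3 (dashed) is highest in CIA replicate 2 and near its mean in Ctrl.

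Nr3c1 encodes the receptor. It was 54.3, 46.1 and 48.0 rescaled FPKM in the Ctrl libraries, 37.7, 31.2 and 33.6 in the CIA libraries, and 39.1, 40.8 and 37.4 in the CIA+THz libraries. On this scale all 3 Ctrl libraries were above all 6 libraries of arthritic mice, and the CIA and CIA+THz ranges met at 37.7 and 37.4. The means of Ctrl, CIA and CIA+THz were 49.5 ± 4.30, 34.2 ± 3.31 and 39.1 ± 1.69 (SD, n = 3). The log2 fold change was -0.53 (SE 0.12) in CIA against Ctrl, with an unadjusted p of 0.00342 and an adjusted p of 0.112 by limma. It was -0.34 (SE 0.10) in CIA+THz against Ctrl, with an adjusted p of 0.168 by limma, and 0.20 (SE 0.10) in CIA+THz against CIA, with an adjusted p of 0.456. With all 3 groups in 1 limma fit, the adjusted p of CIA against Ctrl was 0.0334 at the same log2 fold change. Both differences from Ctrl were under the fold threshold of 0.67. For FPKM as deposited, the Ctrl libraries (49.9, 39.1 and 50.7) and the CIA+THz libraries (48.4, 46.6 and 41.1) overlapped. The log2 fold change from Ctrl was then -0.50 for CIA and -0.03 for CIA+THz (adjusted p = 0.908 by limma), and between CIA+THz and CIA it was 0.47 (adjusted p = 0.118 by limma). Across the 3 groups Nr3c1 had an unadjusted p of 0.00287 and an adjusted p of 0.0731 in the moderated F-test of limma. Together with Fkbp5 it made 2 of 8 members with an unadjusted p under 0.05 across the groups, against 21.3% of all genes. With all 9 libraries, Fkbp5 alone had an adjusted p under 0.05, against 2.53% of all genes. Without CIA replicate 1 the F-test gave 4 members, since Tsc22d3 and Sgk1 were added, with adjusted p-values of 0.175 and 0.234 by limma. The genes with the pattern closest to that of Nr3c1 were Rbm39 (0.07), Rbms1 (0.08) and Rock1 (0.08), against 0.24 for its own variation.

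Tsc22d3 (chromosome X, 140539528 to 140600659, minus strand), known as GILZ, encodes a leucine zipper protein through which glucocorticoids restrain inflammatory signalling in leukocytes. Its rescaled FPKM was 380, 367 and 396 in Ctrl, 379, 545 and 443 in CIA, and 368, 371 and 377 in CIA+THz. The Ctrl and CIA+THz libraries lay close together, CIA replicates 2 and 3 were above them all, and CIA replicate 1 lay just above the highest CIA+THz library. The means were 381 ± 14.4 (SD, n = 3), 456 ± 83.4 and 372 ± 4.45. No comparison passed the criterion, with a log2 fold change of 0.24 (SE 0.15, adjusted p = 0.463) in CIA against Ctrl, of -0.28 (SE 0.14, adjusted p = 0.449) in CIA+THz against CIA, and of -0.04 (SE 0.09, adjusted p = 0.881) in CIA+THz against Ctrl by limma. In CIA against Ctrl, where Fkbp5 fell, the value of Tsc22d3 was thus above 0, and the difference between these genes was not tested. The genes closest to Tsc22d3 in pattern were Arid5a (0.06), Dok3 (0.07) and Ptpn1 (0.07), against 0.18 for its own variation.

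Klf9 (chromosome 19, 23141226 to 23168134, plus strand), a zinc finger repressor and early receptor target, was near the lower limit of what was tested. Its rescaled FPKM was 0.397, 0.759 and 0.820 in Ctrl, 0.321, 0.386 and 0.312 in CIA, and 0.252, 0.713 and 0.648 in CIA+THz. The 3 CIA libraries were below the 3 Ctrl libraries, and CIA+THz reached from below the CIA range into the Ctrl range. The log2 fold change of -0.74 (SE 0.45) in CIA against Ctrl had an unadjusted p of 0.145 and an adjusted p of 0.441 by limma. It passed the criterion without Ctrl replicate 1, at -1.02 with an unadjusted p of 0.0476 by limma.

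Zbtb16 (chromosome 9, 48654297 to 48836222, minus strand) encodes PLZF, a zinc finger factor of innate-like lymphocytes that glucocorticoids induce in several tissues. It was 2.5, 1.41 and 3.75 in Ctrl, 2.22, 2.14 and 1.42 in CIA, and 2.57, 1.80 and 2.46 in CIA+THz, in rescaled FPKM. Both the lowest and the highest library were Ctrl libraries, and the 3 comparisons had adjusted p-values between 0.734 and 0.941 by limma.

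Sgk1 (chromosome 10, 21882184 to 21999903, plus strand), a kinase that regulates ion transport and carries the palindrome shown earlier, had a rescaled FPKM of 15.3, 15.9 and 16.1 in Ctrl, of 12.1, 16 and 18.1 in CIA, and of 12.1, 14.1 and 13 in CIA+THz. The CIA+THz libraries were all below the Ctrl libraries, with a log2 fold change of -0.27 (SE 0.12), an unadjusted p of 0.0516 and an adjusted p of 0.280 by limma. The CIA libraries spanned both ranges, and their difference from Ctrl was -0.05 (SE 0.17).

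Ddit4 (chromosome 10, 59949669 to 59951834, minus strand), also called REDD1, inhibits mTOR signalling under stress and glucocorticoids. It was 10.7, 17.9 and 13.6 in Ctrl, 16.5, 13.8 and 17.3 in CIA, and 14.0, 11.9 and 15.4 in CIA+THz. The 3 groups overlapped, and the log2 fold changes were 0.20 (SE 0.21) in CIA against Ctrl, -0.21 (SE 0.15) in CIA+THz against CIA and -0.01 (SE 0.21) in CIA+THz against Ctrl.

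Anxa1 (chromosome 19, 20373428 to 20390944, minus strand) encodes annexin A1, a protein of neutrophils and monocytes that mediates part of the anti-inflammatory action of glucocorticoids. Its rescaled FPKM was 156, 173 and 117 in Ctrl, 132, 153 and 169 in CIA, and 132, 135 and 120 in CIA+THz. The groups overlapped here as well, and the log2 fold changes were 0.04 (SE 0.18), -0.22 (SE 0.12) and -0.18 (SE 0.16) in the same order of comparisons, with adjusted p-values between 0.452 and 0.933 by limma. For these last 5 members a p over the threshold does not show that the groups were alike.

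The other genes of the pathway were followed in lists drawn from textbook knowledge, with earlier results of these data known. Of all genes, 9.04%, 4.54% and 7.88% passed the criterion in the 3 comparisons. Of the chaperones that hold the receptor, all 13 were tested and 1 passed the criterion in any comparison. This was Dnaja1, a J-domain partner of Hsp70, which was 45.4, 42.4 and 35.3 in Ctrl, 29.9, 30.5 and 26.6 in CIA, and 21.2, 19.8 and 21.2 in CIA+THz. The 3 groups did not overlap, and Dnaja1 fell in CIA+THz against Ctrl by 0.98 on the log2 scale (SE 0.12, adjusted p = 0.0519 by limma). Fkbp4, the co-chaperone that competes with the product of Fkbp5 on Hsp90, was 28.5, 30.2 and 25.3 in Ctrl, 28.8, 21.3 and 28.6 in CIA, and 26.6, 22 and 23.0 in CIA+THz. Its groups overlapped, and the log2 fold change between CIA+THz and Ctrl was -0.23 (SE 0.12, adjusted p = 0.371 by limma). The list medians, with the comparisons in the order used so far, were -0.22, -0.13 and -0.23.

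Of the 12 coregulators of the receptor, those past the criterion were 0 higher and 2 lower in CIA against Ctrl, 1 and 0 in CIA+THz against CIA, and 0 and 1 in CIA+THz against Ctrl, where 9.04%, 4.54% and 7.88% of all genes passed. By sign alone, 3, 9 and 4 of the 12 were higher. Ncoa2, a coactivator, was 18.5, 21.4 and 18.2 in Ctrl and 11.9, 10.7 and 3.93 in CIA, a log2 fold change of -1.27 (SE 0.40, adjusted p = 0.191 by limma). Nrip1, a corepressor, fell by 0.81 in CIA and by 0.74 in CIA+THz against Ctrl on the log2 scale. Med1, a Mediator subunit, rose by 0.90 in CIA+THz against CIA (adjusted p = 0.172 by limma), where CIA was 20.2, 25.4 and 26.1 and CIA+THz was 43.4, 47.4 and 43.1. Its Ctrl libraries, at 43.9, 15.9 and 41.7, reached from below the CIA range into the CIA+THz range. The list medians were -0.25, 0.11 and -0.15.

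Of the 6 genes of receptor relatives and hormone metabolism, 5 were tested and Hsd11b2 was listed at 0 in all libraries. H6pd, which supplies the cofactor for the enzyme that regenerates active hormone, was 5.02, 4.27 and 6.72 in Ctrl and 7.50, 8.74 and 9.87 in CIA, and it rose by 0.71 on the log2 scale (SE 0.23, adjusted p = 0.193 by limma). Abcb1b, a pump that exports steroids among other compounds, was 1.05, 1.77 and 0.855 in Ctrl, 0.388, 0.373 and 0.625 in CIA, and 1.17, 0.826 and 1.21 in CIA+THz. Abcb1b fell by 1.20 in the first comparison and rose by 1.07 in the second, with adjusted p-values of 0.236 and 0.293 by limma. In the 3 comparisons, 1, 1 and 0 of the 5 passed the criterion as higher and 1, 0 and 0 as lower. Of all genes, 9.04%, 4.54% and 7.88% passed it. In CIA+THz against Ctrl, 1 of the 5, H6pd, had an unadjusted p under 0.05 by limma. The medians were -0.20, 0.22 and 0.03.

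A further 28 genes are known to be induced by glucocorticoids in leukocytes or other tissues, of which 26 were tested and Pdk4 and Mertk were listed at 0. Past the criterion were 2 of the 26 in CIA against Ctrl, both lower, 2 in CIA+THz against CIA, 1 in each direction, and 3 in CIA+THz against Ctrl, all lower. These counts stand beside 9.04%, 4.54% and 7.88% of all genes. By sign alone, 12, 6 and 10 of the 26 were higher. The medians were -0.04, -0.21 and -0.13. Il1r2, the decoy receptor of interleukin-1, was 22.5, 26.9 and 17.4 in Ctrl, 8.82, 16 and 9.07 in CIA, and 7.34, 6.74 and 5.91 in CIA+THz. It fell in all 3 comparisons, by 1.01 from Ctrl to CIA (adjusted p = 0.152), by 0.70 from CIA to CIA+THz (adjusted p = 0.319) and by 1.71 from Ctrl to CIA+THz (SE 0.19, adjusted p = 0.0330 by limma). Il7r, a cytokine receptor of T cells, fell in CIA against Ctrl by 0.87 (SE 0.11, adjusted p = 0.0461 by limma). Its CIA libraries, 31.0, 33.5 and 33.4, lay below the Ctrl libraries at 57.5, 63.8 and 57.8 and the CIA+THz libraries at 54.3, 53.1 and 48.1.

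Cebpd, a transcription factor of myeloid cells, was 228, 199 and 184 in Ctrl, 233, 232 and 224 in CIA, and 165, 152 and 147 in CIA+THz, and its adjusted p across the 3 groups was 0.0448 in the F-test of limma. It passed the criterion between no pair of groups, the difference of CIA+THz from CIA being -0.57 (SE 0.08). Lcn2, a neutrophil granule protein, fell by 0.80 in CIA+THz against Ctrl (adjusted p = 0.137 by limma). Fam107a, at 1.00 rescaled FPKM or less in the libraries compared, rose by 1.64 in CIA+THz against CIA (adjusted p = 0.350 by limma). Cebpb passed the criterion in CIA+THz against Ctrl at -3.18, but its libraries swung within groups, from 1.52 to 61.6 in CIA+THz and from 4.56 to 106 in CIA.

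Of the 15 inflammatory genes known to be repressed by glucocorticoids, 11 were tested. In the 3 comparisons, 0, 1 and 0 of them passed the criterion as higher and 2, 0 and 2 as lower, where 9.04%, 4.54% and 7.88% of all genes passed. By sign alone, 2, 7 and 3 of the 11 were higher. Tnf was 1.98, 1.89 and 2.41 in Ctrl, 0.988, 1.11 and 1.45 in CIA, and 0.830, 0.771 and 0.681 in CIA+THz, falling by 0.78 and 1.35 against Ctrl with adjusted p-values of 0.268 and 0.112 by limma. Ccl2 was 2.44, 0.634 and 0.482 in Ctrl, was listed at 0 in all 3 CIA libraries, and was above 0 in 1 CIA+THz library, at 0.241. Il6 was at most 0.449 rescaled FPKM in any library and rose in CIA+THz against CIA by 1.71 (adjusted p = 0.285 by limma). The medians were -0.78, 0.59 and -0.11.

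**Figure D4:**
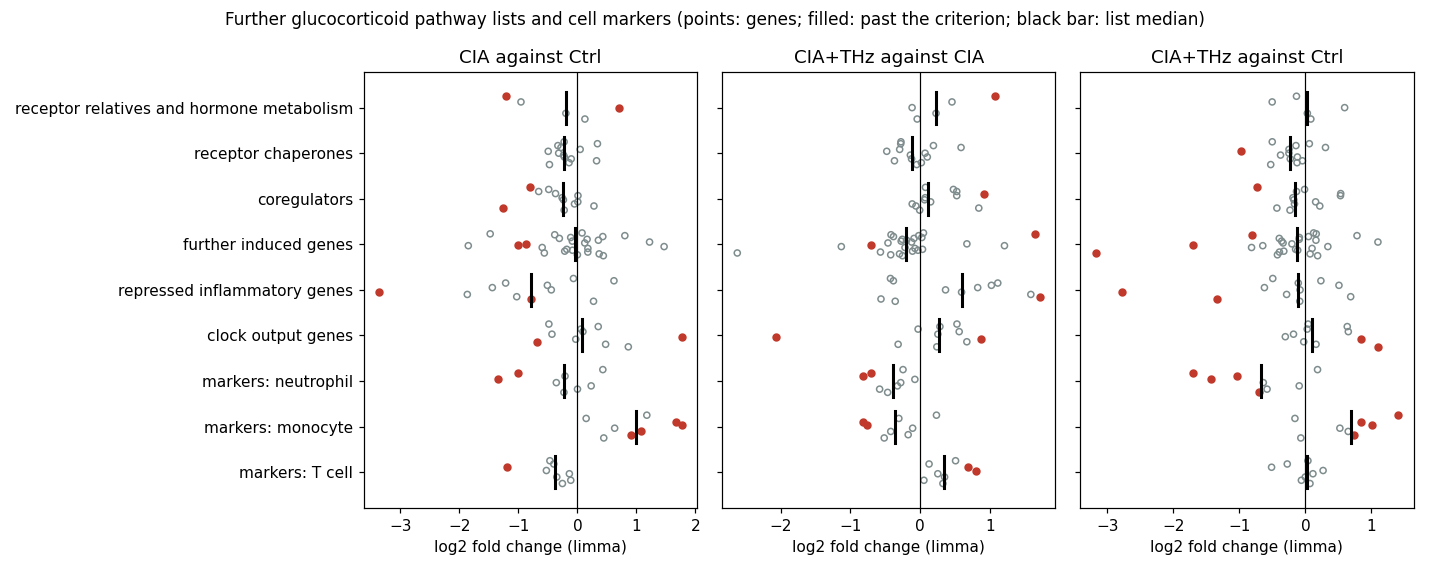
Log2 fold changes (horizontal axes, limma) of the genes of 6 further pathway lists and 3 marker lists in the 3 comparisons. Points are genes, filled where they passed the criterion, and black bars are list medians. Among the induced genes 2, 2 and 3 of 26 points are filled, where 9.04%, 4.54% and 7.88% of all genes passed the criterion. Of the 8 monocyte markers 4 are filled on the higher side in both comparisons with Ctrl, and of the 8 neutrophil markers 4 on the lower side in CIA+THz against Ctrl.

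Markers of some cell types differed between the groups. All marker counts stand against 9.04%, 4.54% and 7.88% of all genes past the criterion in the 3 comparisons. In lists this short, 1 gene past it is not read as a change of its cell type. Marker levels are relative to the other RNA of a library and are not numbers of cells. The study also counted blood lymphocytes, neutrophils, monocytes and white cells, and reports them as raised in CIA and less so in CIA+THz. The marker levels were not tested against those numbers. Of 8 neutrophil markers, none passed the criterion as higher in the 3 comparisons, while 2, 2 and 4 passed it as lower, with Il1r2 among them each time. By sign alone, 5, 8 and 7 of the 8 were lower. Their summed level was between 12268 and 20792 rescaled FPKM in Ctrl, between 14131 and 18263 in CIA and between 10435 and 11883 in CIA+THz, and none was at 0. The 3 precursor granule genes Camp, Ltf and Ngp all rose in CIA against Ctrl, all fell in CIA+THz against CIA, and all rose in CIA+THz against Ctrl. Of 8 monocyte markers 4 rose in CIA and 4 rose in CIA+THz against Ctrl, with sums between 587 and 613 in Ctrl, between 901 and 1007 in CIA and between 720 and 763 in CIA+THz. Of 8 T cell markers 1 fell in CIA against Ctrl and 2 rose in CIA+THz against CIA, with sums between 240 and 272, between 192 and 213, and between 241 and 327.

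The NK cell list, with 5 of its 6 genes tested and Klra8 at 0, had 4 that fell in CIA against Ctrl, 2 that rose in CIA+THz against CIA and 1 that fell in CIA+THz against Ctrl. Of 6 B cell markers 1 rose in CIA+THz against Ctrl, and of 5 tested red cell precursor genes 1 fell in CIA and 3 fell in CIA+THz against Ctrl. The 4 tested eosinophil markers and the 6 platelet markers had none past the criterion in any comparison, with up to 1 and up to 4 at an unadjusted p under 0.05 by limma. Of the 8 pan-leukocyte genes, Ptprc rose in CIA+THz against CIA.

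The level of Fkbp5 was therefore also read relative to each cell type, as the ratio to the geometric mean of its markers. Over the 7 neutrophil markers other than Il1r2, the ratio was 0.122, 0.150 and 0.292 in Ctrl, 0.0392, 0.123 and 0.0328 in CIA, and 0.0561, 0.0580 and 0.0782 in CIA+THz. The CIA+THz libraries remained below the Ctrl libraries on this measure, with means that differed 2.93-fold, and CIA replicate 2 reached into the Ctrl range. Il1r2, itself a neutrophil marker, was also lower over these 7 markers, 2.16-fold in CIA+THz and 1.71-fold in CIA, without overlap. Such a ratio thus cannot set a gene apart from the make-up of the neutrophils. The part of that make-up in the Fkbp5 values was not tested. The mean ratio of Fkbp5 in Ctrl exceeded that in CIA+THz 6.52-fold over the monocyte markers and 4.06-fold over the T cell markers. The same ratio was higher in Ctrl 5.96-fold over the B cell markers and 4.17-fold over the pan-leukocyte genes, without overlap each time. Against CIA it was higher 2.89-fold over the neutrophil markers and 2.16-fold over the T cell markers, with CIA replicate 2 inside the Ctrl range in both. It was higher 5.45-fold over the monocyte markers, 3.56-fold over the B cell markers and 3.19-fold over the pan-leukocyte genes, without overlap. With the libraries scaled on the neutrophil markers in the limma fit, an alternative chosen after the data were seen, Fkbp5 still passed the criterion, at -1.68 in CIA against Ctrl (adjusted p = 0.480 by limma) and at -1.46 in CIA+THz against Ctrl (SE 0.32, adjusted p = 0.0754 by limma). Its value in CIA+THz against CIA turned to 0.23 there, with an unadjusted p of 0.641 by limma. Which cells carried the Fkbp5 transcript was not measured, and the part of these cell types in the values of the other members was not tested.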

How the data were processed

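The authors sequenced blood RNA from 9 mice, 3 per group, with paired-end reads on an Illumina HiSeq instrument. The submitters' processing notes name bcl2fastq 2.0, HISAT2, StringTie, DESeq2 and the build mm10, and the annotation, strand and filters are not given in the sources used here. The authors deposited FPKM, 1 column per library, for 20926 genes. Read counts are not among these values, so depth is known only relative to other libraries.

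Columns were rescaled by median-of-ratios factors, for which the 10312 genes detected in every one of the 9 libraries were used. Genes averaging 0.1 rescaled FPKM or more, 12366 in all, were tested as log2(rescaled FPKM + 0.1) with limma 3.58.1 (lmFit, eBayes with a trend) in R 4.3.3. Pairs of groups were fitted on their 6 libraries (unadjusted p under 0.05 and a log2 fold change beyond 0.67), and the 3 groups together with the moderated F-test. The fit was tested on simulated data. Groups come from the labels, and replicate numbers pair no animals. The members, the further lists and the marker lists (neutrophil, precursor granule, monocyte, T, B and NK cell, eosinophil, platelet, red cell precursor and pan-leukocyte) were chosen with earlier results of these data known. Named were the 8 members, up to 4 genes per further list, comparison and direction with the smallest p past the criterion, and the 3 genes closest in pattern to each member with a mean of at least 1. Fkbp4, Per1, Dusp1, Cxcr4 and Cebpd were named after their values were seen. Coordinates are from GENCODE M21 on GRCm38 and promoters from RefSeq, and Nr3c1 and Zbtb16 were not found in the set of promoters used here.

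The alternatives were FPKM as deposited, scaling on pan-leukocyte genes, a pseudocount of 1, other filters, no trend, a fit of all groups, a replicate block, calls by the Benjamini-Hochberg adjusted p, a linear-scale analysis of variance, leaving out each library, and scaling on neutrophil markers.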

Additional observations from a re-analysis of the deposited data

How the results depend on the processing

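Of 357 member fold changes under the alternative settings, 331 kept their direction and their side of the criterion, 23 reversed, 2 newly passed and 1 no longer passed. Fkbp5 passed the criterion in CIA against Ctrl and in CIA+THz against Ctrl under every alternative but 1, with log2 fold changes between -2.56 and -1.53 and between -2.24 and -1.76 over 15 settings each, the scaling on neutrophil markers not counted, and adjusted p-values between 0.0391 and 0.326 and between 0.00361 and 0.165 by limma. The exception was the Benjamini-Hochberg adjustment, under which CIA against Ctrl (-1.89, adjusted p = 0.156 by limma) failed. That adjustment left 19, 0 and 13 of all genes in CIA against Ctrl, CIA+THz against CIA and CIA+THz against Ctrl and 313 across the groups, and 0 members in CIA against Ctrl and 1 across the groups. Without a trend, 2 members passed in CIA against Ctrl, Klf9 (adjusted p = 0.317 by limma) beside Fkbp5. A pseudocount of 1 left 283 genes in CIA+THz against CIA. With FPKM as deposited 1199 genes passed in CIA+THz against CIA and 1720 in CIA+THz against Ctrl, and values turned with the shift of scale. In CIA+THz against CIA they became 0.000494 for Tsc22d3, 0.10 for Fkbp5, 0.0540 for Sgk1, 0.0660 for Ddit4 and 0.0528 for Anxa1, and in CIA+THz against Ctrl 0.27 for Tsc22d3, 0.22 for Zbtb16, 0.0350 for Sgk1, 0.29 for Ddit4 and 0.12 for Anxa1. Scaling on pan-leukocyte genes gave Anxa1 -0.0143 in CIA against Ctrl, and Tsc22d3 0.0126 and Ddit4 0.0336 in CIA+THz against Ctrl. Scaling on neutrophil markers gave Fkbp5 0.23 in CIA+THz against CIA. Klf9 was not tested under a minimum mean of 1.

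Leaving out each library in turn gave 1 to 2 members in CIA against Ctrl (2 without Ctrl replicate 1), 2 to 4 across the groups (4 without CIA replicate 1), and 724 to 1487 genes in CIA+THz against Ctrl (1487 without Ctrl replicate 3). Reversals came from Fkbp5 in CIA+THz against CIA (-0.54 to 0.49), from Zbtb16 (-0.67 to 0.00359), Sgk1 (-0.17 to 0.11) and Anxa1 (-0.12 to 0.16) in CIA against Ctrl, and from Zbtb16 (-0.43 to 0.24), Klf9 (-0.57 to 0.0914) and Ddit4 (-0.19 to 0.17) in CIA+THz against Ctrl. The cause of these changes was not tested beyond the shift of scale. Libraries with the same replicate number did not deviate together (correlations between -0.0517 and 0.0309 over 9 pairs), and with the replicate block the members past the criterion numbered 1, 0, 1 and 2 as without it, and the genes 1073, 506, 967 and 2399. With 3 libraries in a group, differences in low genes such as Klf9 were not resolved. Nor was a difference of Fkbp5 between CIA+THz and CIA smaller than the distance of CIA replicate 2 from its group.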

Other observations

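The clock genes were read beside Klf9 and Per1, because glucocorticoids and the daily rhythm act on the same genes. Of 11 clock output genes, 10 were tested and Bmal1 had no row under that symbol. In CIA against Ctrl, Hlf rose by 1.76 and Nr1d2 fell by 0.69 on the log2 scale, with adjusted p-values of 0.271 and 0.247 by limma. In CIA+THz against CIA, Tef rose by 0.86 and Hlf fell by 2.07, and in CIA+THz against Ctrl, Tef rose by 0.84 and Dbp by 1.10, with adjusted p-values between 0.194 and 0.319 by limma. Tef was 1.96, 2.25 and 1.87 rescaled FPKM in Ctrl, 1.47, 2.31 and 2.27 in CIA, and 2.87, 5.18 and 3.35 in CIA+THz, whose libraries were above all others. Dbp was 1.96, 1.02 and 0.879 in Ctrl, 2.39, 2.49 and 2.00 in CIA, and 2.10, 2.38 and 3.94 in CIA+THz. The list medians were 0.08, 0.26 and 0.10 in CIA against Ctrl, CIA+THz against CIA and CIA+THz against Ctrl.

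The genes closest in pattern to the remaining members, by the root mean square difference over the 9 libraries, were Hdlbp (0.04), Stat3 (0.08) and Fam129a (0.09) for Sgk1, Il13ra1 (0.09), Ints12 (0.09) and Arid3a (0.10) for Anxa1, Necap2 (0.12), Zkscan14 (0.12) and Eif1ax (0.12) for Ddit4, and Slc22a3 (0.17), Kctd18 (0.19) and Tbc1d5 (0.19) for Zbtb16. The own variation of these members in the same measure was 0.19, 0.20, 0.23 and 0.40. Stat3, the transcription factor downstream of interleukin-6 type cytokines, was 56.2, 54.8 and 60.7 in Ctrl, 48.3, 61.9 and 59.0 in CIA, and 45.3, 50.7 and 48.0 in CIA+THz. Like Sgk1, it was lower in the 3 CIA+THz libraries than in the 3 Ctrl libraries, and CIA replicate 1 was the lowest of its group. Stat3 was chosen for this likeness.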
